A study of Canis lupus familiaris with 6 samples.

Results

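The caspases, the BCL2 family and their regulators were followed in dog kidney epithelial cells grown alone or among competing neighbours. Members were taken from a list of 48 genes by matching each symbol to the gene name of the array's non-control probes. Of these, 32 genes had a probe, 55 probes in all of the 43603 on the array, and the brightest probe stood for each gene. The other 16 genes had no probe matched by name and were not analysed here. They were CASP1, FADD, RIPK1, RIPK3, MLKL, BAK1, BOK, BCL2L10, BCL2L11, BCL2L13, BIK, BBC3, BNIP3, PYCARD, GSDMD and DFFA, among them the necroptosis kinases and 2 of the 3 pore-forming effectors.

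All 6 arrays measured the same cells at 24 h of tetracycline, MDCK-pTR GFP-RasV12 cells that also carried mCherry-β-catenin Δ131. MDCK is an established line from dog kidney epithelium. The β-catenin Δ131 is a stabilised form that keeps Wnt signalling on, and tetracycline switches on the GFP-tagged RasV12, an active Ras oncoprotein. In the single culture (3 arrays) they grew alone. In the mix culture (3 arrays) they grew with MDCK mCherry-β-catenin Δ131 cells, 10 for each RasV12 cell, which carry the same β-catenin and no RasV12. GFP-positive cells were then sorted and their total RNA was hybridised with 1 dye to canine arrays. The comparison asks what the presence of neighbours without RasV12 changed in the RasV12 cells. The sources used here do not say whether the replicates came from separate cultures, so p-values measure the spread between these arrays, which may be technical. Fewer cells of a kind and less RNA per cell cannot be told apart in sorted bulk RNA, and neither can cells of the other kind that passed the sort.

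Apoptosis runs along 2 connected routes. In the extrinsic route, death receptors recruit adaptors such as FADD and TRADD and activate the initiator caspases CASP8 and CASP10, which CFLAR restrains. In the intrinsic route, BH3-only proteins such as BID, BAD, HRK and PMAIP1 engage the survival proteins BCL2, BCL2L1 and MCL1 and free the effectors BAX and BAK1 to open the outer mitochondrial membrane. Released factors then act with APAF1 and CASP9, or, like DIABLO and HTRA2, relieve the block that XIAP and its relatives place on caspases. In epithelia, cells that are outcompeted or detached from their layer can be removed by this machinery, and much of it is set by protein cleavage and binding, which an RNA array does not read.

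The probe stretches on which the results rest are shown first, so that values can be traced to a place in each gene. Each is the first 30 bases of a 60-base probe, 5′ to 3′ along the strand given, as the deposited array design lists it. Positions are those of the design on CanFam3.1. For the brightest BCL2L1 probe, whose aligned span is 58 bases, the whole span is given, and for the others the span of the printed bases. Where the probes lie relative to exons and UTRs was not annotated here.
BCL2L1, brightest probe, chr24:21145214-21145271, minus strand: aaatagtctgtgtgaaggtgaaagtgcagt
BCL2L1, second probe, chr24:21195868-21195897, minus strand: agctttcccagaaaggatacagctggagtc
CASP10, its probe, chr37:10341453-10341482, plus strand: atcctttcggcatgtggagaaaggcagctg
BCL2, brightest probe, chr1:13900585-13900614, plus strand: tctcaggctcagcgtcgaatcagctattta
BCL2L14, brightest probe, chr27:34179512-34179541, minus strand: ttgtggtagtgtaacgatgagtccatggta
BCL2L14, second probe, chr27:34179614-34179643, minus strand: tttgaaaaacttgcatttggcagaaaataa
BAX, brightest probe, chr1:107423273-107423302, minus strand: agatgggctgaggccaccagccgccttgga
BAX, second probe, chr1:107425012-107425041, minus strand: aacttcaactggggccgggttgttgccctc
CASP12, brightest probe, chr5:27177604-27177633, plus strand: agttgcccaccctcaaccaacaccaagcta
CASP12, second probe, chr5:27176905-27176934, plus strand: atgcccacaattgaaagagtatccatgaca
The 2 BCL2L1 probes are 50.6 kb apart, whereas those of BAX are separated by 1679 bases, those of CASP12 by 639 and those of BCL2L14 by 42.

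On each array, 61.1% to 65.7% of spots passed as well above background, and the 75th percentile of intensity ranged from 161 to 233 units. Replicate 1 of both groups shared slide 1, and the other 4 arrays shared slide 2, with another software version and scan resolution. Both groups were equally represented on either slide, so the comparison was fitted without a block, as the study's unpaired test implies, and again with the slide as a block. A level below is a normalised log2 signal, the log2 of the processed signal minus that array's 75th percentile. A change is the mix culture mean minus the single culture mean on that scale, and a call is an adjusted p under 0.05 in limma over 26621 probes. As a check of the labelled cell type, all 8 epithelial markers with a probe were well above background on all 6 arrays, including EPCAM and the kidney markers CDH16 and PAX8. No array had PTPRC, the pan-leukocyte marker, well above background.

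Of the 31 members that passed the filter on dim probes, none was called without a block, where limma called 0.871% of all probes. At an unadjusted p under 0.05 there were 4 such members, 12.9% against 8.71% of all probes. With the slide block the same 4 genes were called, 12.9% of the members against 7.22% of all probes. CASP10, BCL2 and BCL2L14 were higher in the mix culture and BCL2L1 was lower. The groups did not overlap for 6 members, those 4 with BCL2L2 and XIAP, which is 19.4% of the members against 16.5% of all probes. The members' shares were close to those of all probes, so the counts single out no property of the list. Leaving out any 1 array brought the count with the slide block to 1 or 2. Without single culture replicate 1 or 3 or mix culture replicate 1, CASP10 alone was called. Without single culture replicate 2 or mix culture replicate 3, CASP10 and BCL2L14 were called, and without mix culture replicate 2, CASP10 and BAX. Without a filter on dim probes it was 1.

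**Figure D1:**
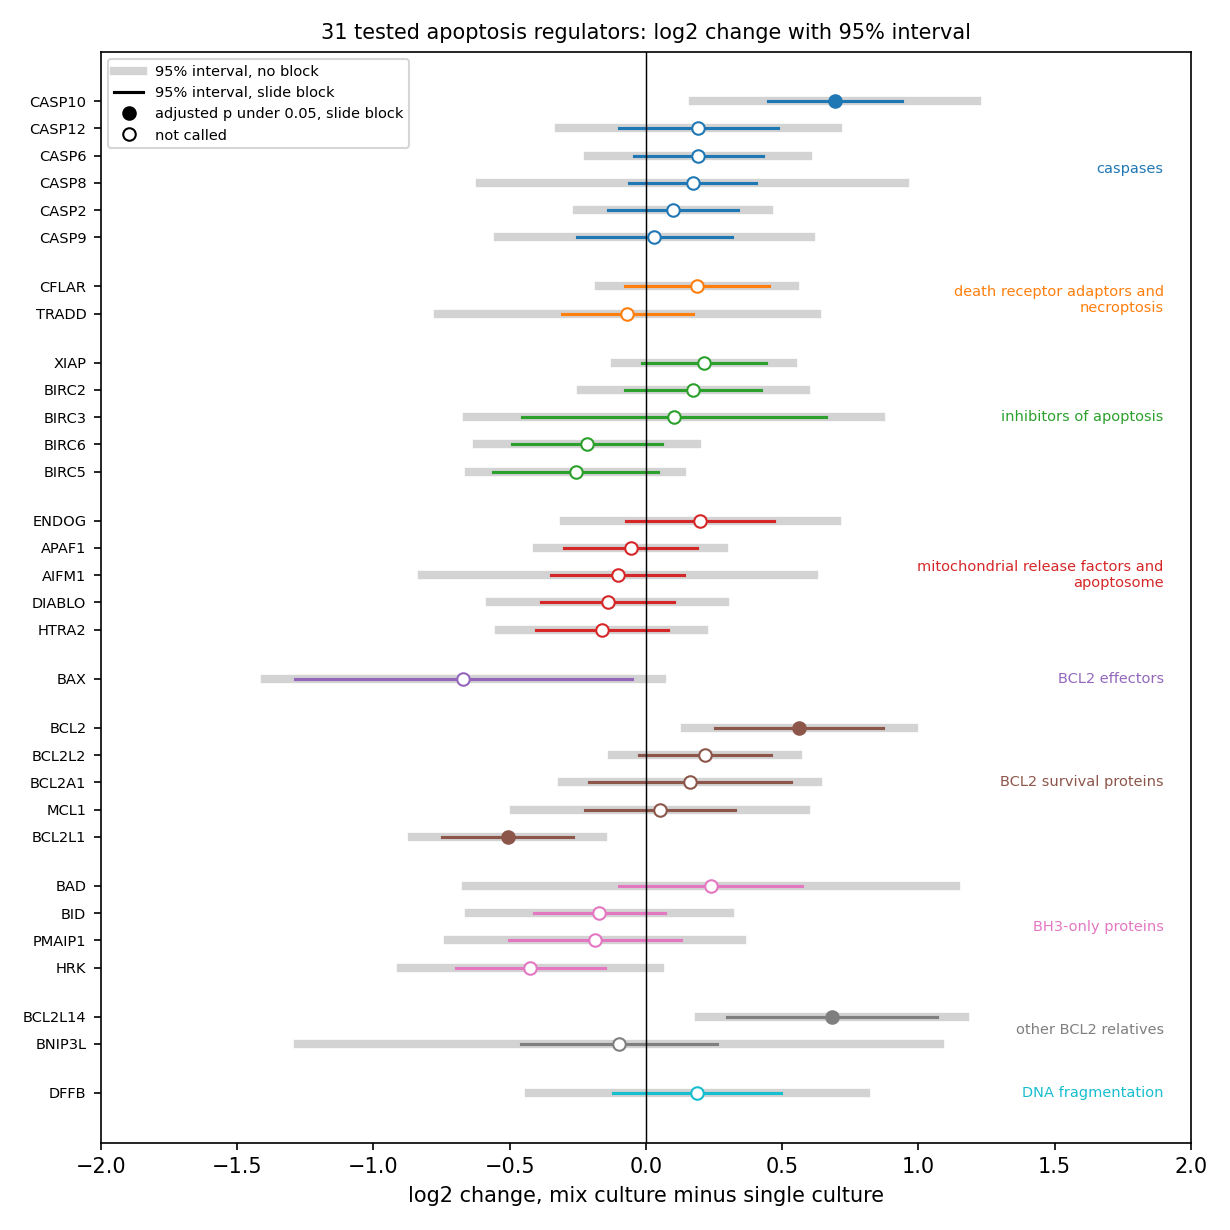
Log2 change (mix culture minus single culture, horizontal axis) of the 31 tested members grouped by role, with points for the estimate, grey bars for the 95% interval without a block and coloured bars for the interval with the slide block. Filled points are the 4 members called with the slide block. Of the 31 changes, 25 lie within 0.3 of 0, beside 19878 of 26621 over all probes tested.

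The median change over the 31 members was 0.10, beside -0.05 over all probes tested, and 18 members were higher and 13 lower. It came to 0.00 on slide 1 and 0.08 on slide 2. The median absolute change was 0.19 over the members and 0.17 over all probes tested. A change over 0.5 in either direction was seen in 16.1% of the members and 9.4% of all probes. With the slide block, the 95% interval reached 0.27 to either side of the estimate for the median member, and for 29 of the 31 members it lay inside a change of 1 in either direction. Without the block the median reach was 0.48.

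Caspases were the first group. All 6 with a probe had higher means in the mix culture, and 1 of them, CASP10, was called. CASP10 is an initiator caspase of the death receptor route. The CASP10 levels were -2.54, -2.22 and -2.09 in single culture replicates 1 to 3, and -1.97, -1.44 and -1.36 in mix culture replicates 1 to 3. Every mix culture array lay above every single culture array, and on each slide the mix arrays were the higher ones. The means were -2.28 ± 0.23 (SD, n = 3) and -1.59 ± 0.33 (SD, n = 3). The change was 0.69, or 1.62-fold, with an SE of 0.22 and an adjusted p of 0.373 in limma without a block. With the slide block the SE was 0.11 and limma's adjusted p was 0.0084. The change was 0.57 on slide 1 and 0.76 on slide 2, where 2 arrays against 2 gave an adjusted p of 0.022 in limma. CASP10 kept its call in every alternative fit made with the slide block, with adjusted p between 0.0070 and 0.046 in limma. Under normexp background correction its change was 0.29, with an adjusted p of 0.040 in limma with the slide block and 0.946 without a block.

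CASP10 lies between CFLAR and CASP8 in the design's coordinates. Its probe is 53.7 kb from the brightest CFLAR probe and 60.2 kb from that of CASP8. CASP8, the other initiator of the same route, changed by 0.17 (SE 0.10, adjusted p = 0.314 in limma with the slide block). CFLAR, a caspase-like protein without catalytic activity that inhibits CASP8, changed by 0.19 (SE 0.11, adjusted p = 0.329 in limma with the slide block). The second CFLAR probe changed by 0.36 (adjusted p = 0.229 in limma with the slide block), with -0.06 on slide 1 and 0.57 on slide 2. Neither gene was called, and whether CASP10 differed from its neighbours was not tested.

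The 4 remaining caspases changed by 0.03 to 0.19. They were CASP2, an initiator linked to DNA damage, CASP6, an executioner, CASP9, the caspase of the apoptosome, and CASP12, an inflammatory caspase of the endoplasmic reticulum. The 2 CASP12 probes differed in their test. The brightest had levels of -2.88, -3.18 and -3.24 in the single culture and -2.58, -2.88 and -3.26 in the mix culture, so the groups overlapped, and it was not called (change 0.19, adjusted p = 0.361 in limma with the slide block). The dimmer one had -4.27, -3.86 and -3.80 in the single culture and -3.34, -3.16 and -3.48 in the mix culture, with no overlap. Its change was 0.65 (SE 0.14, adjusted p = 0.030 in limma with the slide block, 0.30 without). For CASP2, 4 probes gave changes between -0.01 and 0.18.

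Among BCL2 survival proteins, the best-known pair moved in opposite directions. BCL2L1, which encodes BCL-XL, had levels of 4.53, 4.35 and 4.27 in the single culture and 3.91, 3.90 and 3.83 in the mix culture. The mix arrays lay within 0.1 of each other and all below the single culture. The means were 4.39 ± 0.13 (SD, n = 3) and 3.88 ± 0.05 (SD, n = 3), a change of -0.51, so that the single culture signal was 1.42-fold that of the mix culture. The SE was 0.15 and the adjusted p 0.308 in limma without a block, and 0.10 and 0.027 with the slide block. The second BCL2L1 probe, 50.6 kb away, had levels of -1.60, -1.93 and -1.91 in the single culture and -2.60, -2.64 and -2.39 in the mix culture. These groups did not overlap either. Its change was -0.73 (SE 0.13, adjusted p = 0.015 in limma with the slide block, 0.159 without). Both probes were lower on both slides, by -0.63 and -1.0 on slide 1 and by -0.45 and -0.59 on slide 2. With the replicate number as a block, the brightest probe had an adjusted p of 0.052 and the second 0.027 in limma. Leaving out any 1 array ended the call of the brightest probe, with adjusted p between 0.057 and 0.115.

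BCL2, the founding survival protein of the family, was higher in the mix culture. Its levels were -0.16, -0.39 and -0.44 in the single culture and 0.29, 0.42 and -0.01 in the mix culture. The groups did not overlap, with the lowest mix array, replicate 3, close above the highest single array, replicate 1. The means were -0.33 ± 0.15 (SD, n = 3) and 0.23 ± 0.22 (SD, n = 3). The change was 0.56, or 1.48-fold, with an SE of 0.18 and an adjusted p of 0.367 in limma without a block, and 0.13 and 0.045 with the slide block. It was 0.45 on slide 1 and 0.62 on slide 2. Leaving out any 1 array ended the call (adjusted p 0.056 to 0.155), and so did the replicate block (0.053). A second BCL2 probe, 166.0 kb away, was well above background on no array.

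**Figure D2:**
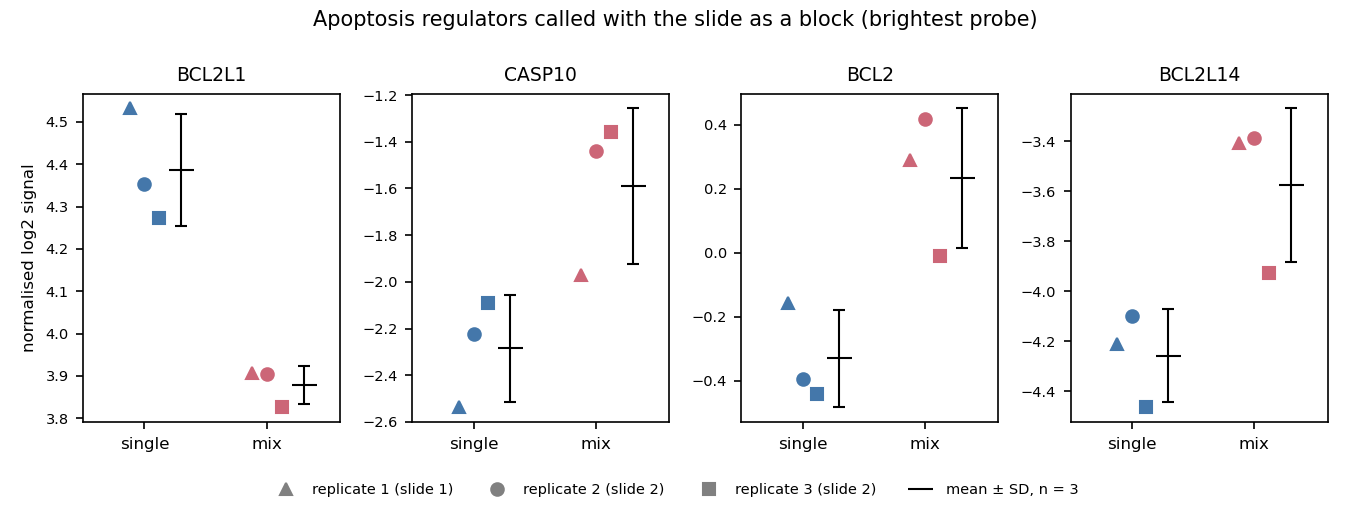
Normalised log2 signal (vertical axis, a separate scale for each gene) of the brightest probes of BCL2L1, CASP10, BCL2 and BCL2L14 on each of the 6 arrays. Symbols mark the replicate and its slide, and bars are the mean ± SD of 3 arrays. In each panel the groups do not overlap, with BCL2L1 lower and the other 3 genes higher in the mix culture.

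The remaining survival proteins moved less. BCL2L2, which encodes BCL-W, had levels of -3.12 to -2.94 in the single culture and -2.89 to -2.74 in the mix culture, and was not called (change 0.22, SE 0.11, adjusted p = 0.233 in limma with the slide block). MCL1, a short-lived survival protein, changed by 0.05 with a 95% interval of -0.22 to 0.33. BCL2A1, a survival protein known as an NF-κB target, changed by 0.16 with an interval of -0.21 to 0.53. Neither was called.

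BAX was the 1 pore-forming effector with a probe. Its levels were 2.51, 1.87 and 1.95 in the single culture and 1.35, 2.02 and 0.96 in the mix culture. Mix culture replicates 1 and 3 lay below every single culture array, while replicate 2 lay above 2 of them, so the groups overlapped. The means were 2.11 ± 0.35 (SD, n = 3) and 1.44 ± 0.54 (SD, n = 3), a change of -0.67 with an SE of 0.31 and an adjusted p of 0.631 in limma without a block, and 0.27 and 0.166 with the slide block. The change was -1.16 on slide 1 and -0.43 on slide 2. The second probe gave the same order of arrays in the mix culture, with levels of 1.68, 1.09 and 1.08 in the single culture and 0.56, 1.22 and 0.33 in the mix culture, and a change of -0.58. The value turned on single arrays. With the slide block in limma, the change of the brightest probe was -1.04 (adjusted p = 0.0044) without mix culture replicate 2, -0.44 (adjusted p = 0.353) without mix culture replicate 3 and -0.43 (adjusted p = 0.515) without replicate 1 of either group. With all 6 arrays, BAX was not called.

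**Figure D3:**
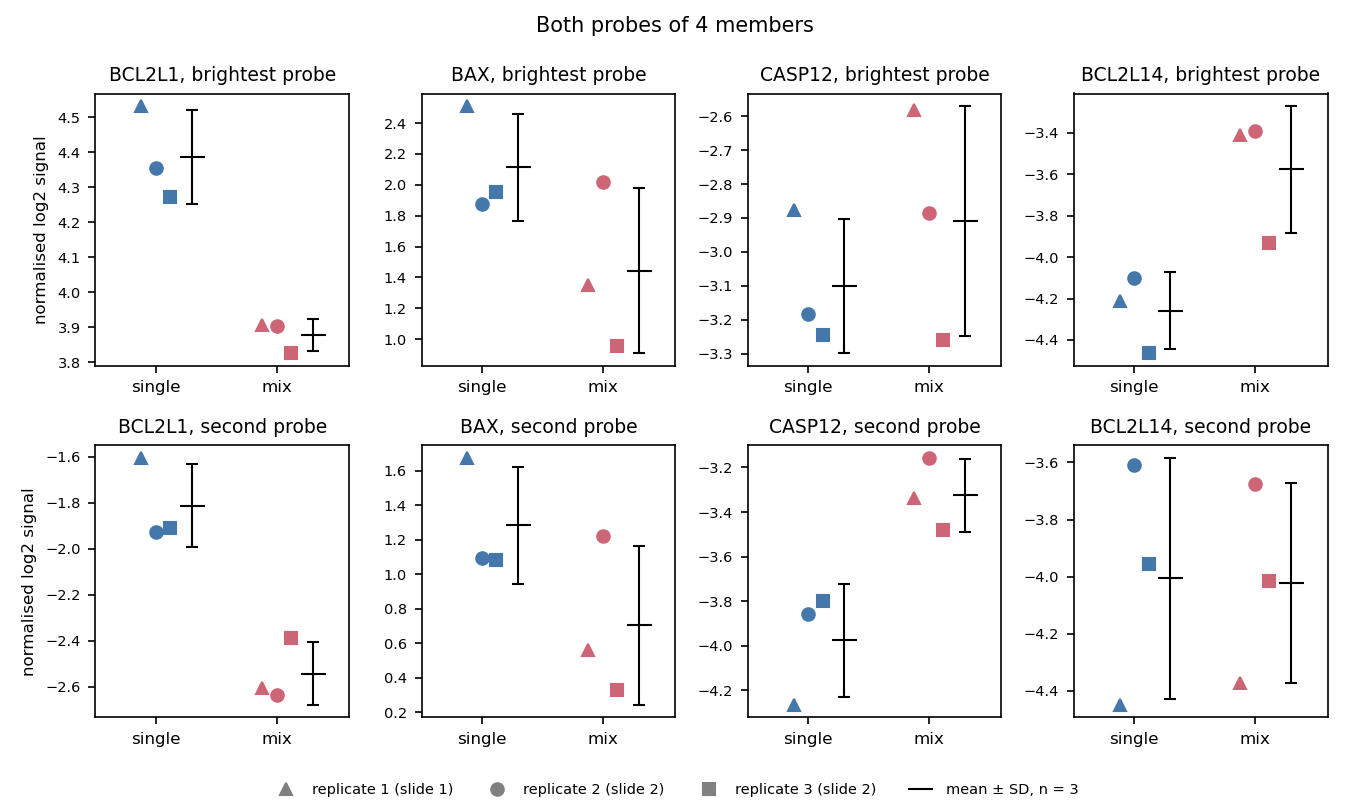
Normalised log2 signal on each array for the brightest probe (top) and the second probe (bottom) of BCL2L1, BAX, CASP12 and BCL2L14, with symbols for the replicate and its slide and bars for the mean ± SD of 3 arrays. Both probes are lower in the mix culture for BCL2L1, BAX shows the same high mix replicate 2 with both, and the 2 probes of CASP12 and of BCL2L14 differ in their change.

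BH3-only proteins sense damage and loss of growth signals. Of the 4 tested, HRK, BID and PMAIP1 had lower means in the mix culture and BAD had a higher one, and none was called in either fit. HRK, known for its role in neurons, had levels of 2.89, 3.29 and 3.08 in the single culture and 2.37, 2.69 and 2.93 in the mix culture. Mix culture replicate 3 lay just above single culture replicate 1, and the groups overlapped. The means were 3.09 ± 0.20 (SD, n = 3) and 2.66 ± 0.28 (SD, n = 3). The change was -0.42 (adjusted p = 0.65 in limma without a block, 0.075 with the slide block), or -0.28 without mix culture replicate 1 and no block. HRK was called under normexp with the slide block (adjusted p = 0.022 in limma). In the authors' deposited log2 values, fitted without a block, its adjusted p was 0.034 in limma. BID, which CASP8 cleaves to link both routes, changed by -0.17, and its other 2 probes by -0.24 and -0.26. PMAIP1, also called NOXA, changed by -0.19, with -0.45 on slide 1 and -0.06 on slide 2. BAD, which growth factor signalling holds inactive by phosphorylation, changed by 0.24 with an interval of -0.10 to 0.57.

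BMF, a BH3-only protein tied to the cytoskeleton, was too dim to be tested. It was well above background on single culture replicates 1 and 2 and on none of the other arrays. Its levels were -5.26, -4.80 and -5.72 in the single culture and -6.23, -6.16 and -5.90 in the mix culture. With 1 single culture array and all mix culture arrays at that limit, no fold is given. Without a filter on dim probes its adjusted p was 0.502 in limma without a block and 0.189 with the slide block.

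Of the more distant relatives, BCL2L14, known as BCL-G, had levels of -4.21, -4.10 and -4.46 in the single culture and -3.41, -3.39 and -3.93 in the mix culture. The groups did not overlap, but these were dim spots, with 7.81 to 21.9 intensity units. The means were -4.26 ± 0.19 (SD, n = 3) and -3.58 ± 0.31 (SD, n = 3). The change was 0.68, or 1.61-fold, with an SE of 0.21 and an adjusted p of 0.329 in limma without a block, and 0.17 and 0.0499 with the slide block, which lies at the threshold. The second probe, 42 bases away, had levels of -4.45, -3.61 and -3.96 in the single culture and -4.37, -3.67 and -4.02 in the mix culture, with a change of -0.02. Of its 2 other probes, 1 was well above background on 2 mix culture arrays alone and 1 on no array. With the 2 measured probes averaged, the change was 0.33 and was not called (adjusted p = 0.216 in limma with the slide block), and it was 0.12 under another background correction. BNIP3L, a mitophagy receptor of the outer mitochondrial membrane also called NIX, changed by -0.10. The design places its brightest probe on chromosome X and its other 2 on chromosome 25, so that value is uncertain, and those 2 changed by -0.05 and 0.03.

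Inhibitors of apoptosis bind caspases or their activators. None of the 5 was called in either fit, and the changes ran from -0.26 to 0.21. BIRC5, which encodes survivin and acts mainly in dividing cells, had a mean of 3.12 ± 0.15 (SD, n = 3) in the single culture and 2.87 ± 0.16 (SD, n = 3) in the mix culture. XIAP, a direct caspase inhibitor, had levels of -0.21, -0.09 and -0.11 in the single culture and 0.08, 0.09 and 0.05 in the mix culture. These groups did not overlap, yet the change was 0.21 with an adjusted p of 0.219 in limma with the slide block, and the other 2 probes changed by 0.12 and 0.14. BIRC2, a ubiquitin ligase of TNF receptor signalling, changed by 0.17, and BIRC6, a very large member of the family, by -0.22. BIRC3, the close relative of BIRC2 whose probe lies 30.8 kb from it and a known NF-κB target, changed by 0.94 on slide 1 and by -0.31 on slide 2. Mix culture replicate 1 stood at -1.81, while the other 5 arrays lay between -2.97 and -2.45.

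**Figure D4:**
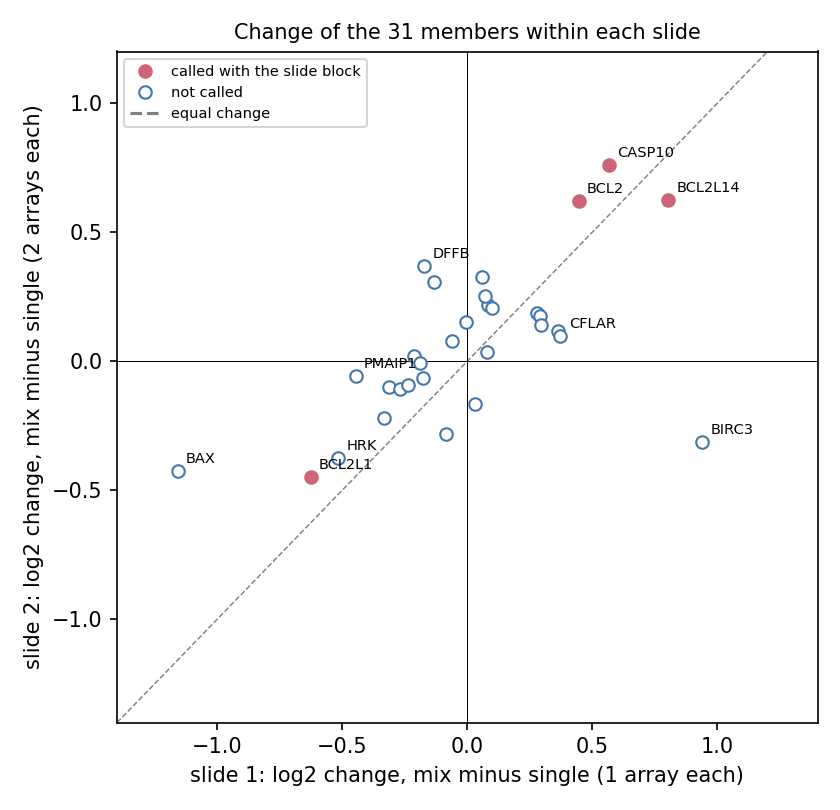
Log2 change (mix culture minus single culture) of each of the 31 tested members on slide 1 (horizontal axis, 1 array per group) and on slide 2 (vertical axis, 2 arrays per group), with filled points for the 4 members called with the slide block. The sign was the same on both slides for 24 of the 31 members, and BIRC3 and DFFB are 2 of the 7 that differed.

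The members released from mitochondria or assembled with them showed no call in either fit. ENDOG, a mitochondrial nuclease, had means of 1.65 ± 0.32 (SD, n = 3) in the single culture and 1.85 ± 0.19 (SD, n = 3) in the mix culture, a change of 0.20. Without a block it was 0.021 without single culture replicate 1, 0.34 without single culture replicate 2, and leaving out mix culture replicate 3 gave 0.11. APAF1, the scaffold of the apoptosome, AIFM1, a flavoprotein that can move to the nucleus, DIABLO, also called SMAC, and HTRA2, a serine protease, changed by -0.16 to -0.06. TRADD, the adaptor of TNF receptor signalling, changed by -0.07. CFLAR had means of -1.49 ± 0.13 (SD, n = 3) and -1.3 ± 0.09 (SD, n = 3), and its change was 0.12 without single culture replicate 1 and no block. DFFB, the nuclease that cuts DNA between nucleosomes, had means of -4.85 ± 0.18 (SD, n = 3) and -4.66 ± 0.49 (SD, n = 3), with a change of -0.17 on slide 1 and 0.37 on slide 2. Without a block it was 0.47 without mix culture replicate 1, 0.047 and 0.049 without mix culture replicates 2 and 3, and 0.088 without single culture replicate 1. Across the 31 members, 7 had opposite signs on the 2 slides, namely APAF1, BCL2A1, BIRC3, BNIP3L, CASP2, CASP9 and DFFB.

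Among the members, 12 had 2 or more tested probes, and in 8 of them all probes had the same sign. The exceptions were AIFM1, BCL2L14, BNIP3L and CASP2. Apart from BCL2L14, the changes of their probes all lay between -0.10 and 0.18.

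A wider list of 53 apoptosis genes that are not members put these values beside death receptors, adaptors and mitochondrial proteins. Of these, 39 had a probe and 31 were tested. None was called without a block, and with the slide block 2 were higher and 2 lower, that is 4 of 31 beside the 7.22% of all probes. TNFSF10, the death ligand TRAIL, rose from 0.48 ± 0.20 to 1.28 ± 0.20 (SD, n = 3 each), a change of 0.79, with 0.80 on slide 1 and 0.79 on slide 2 (adjusted p = 0.0041 in limma with the slide block, 0.158 without). MDM2, a ubiquitin ligase, rose by 0.45 (adjusted p = 0.039 in limma with the slide block, 0.557 without). CRADD, an adaptor that recruits CASP2, fell by 0.91 (adjusted p = 0.014 in limma with the slide block, 0.184 without). ENDOD1, an endonuclease domain protein, fell by 0.44 (adjusted p = 0.045 in limma with the slide block, 0.558 without). With the replicate block TNFSF10 and CRADD were called and MDM2 (adjusted p = 0.071 in limma) and ENDOD1 (adjusted p = 0.086 in limma) were not. FAS changed by 0.16 and was not called, and no array had FASLG well above background.

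Of the 8 epithelial markers with a probe, 2 were lower in the mix culture with the slide block, the tight junction gene CLDN4 by -0.87 (adjusted p = 0.014 in limma) and the cadherin CDH1 by -0.47 (adjusted p = 0.044 in limma with the slide block, 0.076 with the replicate block). Without a block none was called. PAX8 had a higher mean in the mix culture, with a change of 0.47 (adjusted p = 0.063 in limma with the slide block), KRT18 changed by -0.40, and OCLN, CDH16, TJP1 and EPCAM by -0.14 to -0.02, none of them called. On the linear scale the summed normalised signal of the 8 markers ran from 404 to 498 in the single culture and from 316 to 405 in the mix culture, and most of it was KRT18. Without KRT18 the sum ran from 99.4 to 141 and from 96.6 to 121. That of the 5 immune markers ran from 0.48 to 0.64 and from 0.46 to 0.60. The part of these values in the changes of the apoptosis genes was not tested.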

How the data were processed

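The arrays were Agilent Canine (V2) 4x44K chips with 1 dye, Cy3. The authors deposited a scanner file per array, whose processed signal is a background-subtracted intensity on a linear scale, made with Agilent Feature Extraction 11.5.1.1 (slide 1, 3 µm scan) and 12.1.1.1 (slide 2, 5 µm scan) per the file headers, with no scaling between arrays. They also deposited a table of log2 values with its steps unstated. Its values averaged about 0 over slide 1 for 100% of the probes compared and over slide 2 for 29.5%. With both sources centred within each slide, its columns for mix culture replicates 2 and 3 matched each other's scanner files. The correlations were 0.999 and 0.993, against 0.457 and 0.459 for their own. The deposited table therefore served as an alternative and carries no pairing. Column medians lay between -0.02 and 0.02. Columns of fold changes or p-values were not used.

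Control spots and outlier-flagged spots (5 to 9 per array) of the scanner files were dropped. Values were log2 signals, averaged over a probe's spots, less the array's 75th percentile. There was no saturated spot. The test took probes that were well above background on all arrays of either group. The fits were made in R 4.3.3 with limma 3.58.1 (two-sided, Benjamini-Hochberg over all probes tested), without a block and with the slide as a block. The code was tested on simulated data. Intervals are those of limma at 95%, for each gene alone. The number of arrays limits the precision. Reading direction was checked on 699 pairs of overlapping probes of the design, of which 545 matched along the listed strand and 0 against it.

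The members, their roles, the wider list and the markers were chosen with earlier results of these data known. Every member is named. A member called in either fit gets its value on every array, and in each role the member with the largest absolute change gets its group means. CASP12, XIAP, BIRC3, BMF and other members given in more detail were added after their values were seen. Called genes of the wider list are named, and FAS and FASLG were added. Some genes of that list are not reported here. Deviations from the group means correlated at 0.801, 0.530 and 0.572 for arrays of the same number. On slide 2, arrays of different numbers correlated at 0.610 and 0.632, and both replicate 1 arrays shared slide 1. The correlations therefore do not show that the number pairs the arrays, and the replicate block is given as an alternative only. Since the 2 sources differ on which array is mix culture replicate 2 or 3, values with the replicate block are open to that doubt, and neither main fit uses the number. Gene symbols are those of the array design.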

Additional observations from a re-analysis of the deposited data

How the results depend on the processing

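Without a block, none of the 31 members was called under normexp background correction with an offset of 50, quantile or median scaling, either other filter on dim probes, the mean of a gene's probes, the methods' t-test after Benjamini-Hochberg, or leaving out any 1 array (lowest 0, highest 0). The count was 4 with the slide block, 2 with the replicate block (CASP10 and BCL2L14) and 1 on slide 2 alone. It was 6 in the authors' table, fitted here without a block. The values of that table averaged about 0 over slide 1 for 100% of probes and over slide 2 for 29.5%. The methods' t-test gave 6 members at an unadjusted p under 0.05. With the slide block the count was 4, and it was also 4 under normexp, where HRK was called and BCL2L14 was not. It was 2 with the replicate block, under quantile scaling and under median scaling. It was 1 without a filter and on slide 2 alone, and 1 to 2 when 1 array was left out. Of these, the fit without a filter tested more probes and those on fewer arrays had fewer samples, and the cause was not tested for the rest.

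The median change of the members, 0.10, was 0.030 under normexp and 0.00 (-0.0034) on slide 1 alone, and 0.029 to 0.090 when 1 array was left out, against an SD of 0.047 over the 3 same-numbered pairs. DFFB reversed to -0.053 under normexp and to -0.17 on slide 1, with and without the block, and no other of the 10 members followed did so. Over all probes, calls numbered 232 without a block, and 1411 with the replicate block, 100 under normexp, 143 with a stricter filter that asked for all 6 arrays, 985 on slide 2, 8 by the methods' t-test, 4077 in the authors' table and 86 to 244 with 1 array left out. With the slide block they numbered 1923, and 756 without a filter, 985 on slide 2 and 735 to 1549 with 1 array left out. Dim probes limit BMF and BCL2L14, and also DFFB (6.19 to 8.67 intensity units) and the second CASP12 probe (10.7 to 23.1 units).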
